A study of Mus musculus with 8 samples.

Results

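The enzymes of oxidative phosphorylation are encoded in part by the mitochondrial genome and, for most of their subunits, by nuclear genes. The nuclear genes were taken here by symbol: those starting with Ndufa, Ndufb, Ndufc, Ndufs, Ndufv, Sdh (Sdha to Sdhd), Uqcr, Cox4i, Cox5, Cox6, Cox7, Cox8 or Atp5, plus Cyc1 and Cycs. Of 18193 genes with a probe set of their own on the array, 92 were members. They were set against age in RPE/choroid, the retinal pigment epithelium with the vascular choroid beneath it, from male C57BL/6 mice of 4 months (young, 4 arrays) and 26 months (old, 4 arrays). No treatment or mutation was given for either age. Each Affymetrix Mouse 430 2.0 array carried RNA of 4 RPE/choroids pooled from 2 animals, so a value is a mean over those animals and over every cell type of the tissue. Fewer cells of a type and less RNA per cell cannot be told apart in such samples.

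In oxidative phosphorylation, complexes I and II pass electrons from NADH and succinate to ubiquinone, complex III passes them to cytochrome c, and complex IV hands them to oxygen. Complexes I, III and IV pump protons while they do so, and ATP synthase lets the protons back and makes ATP. The RPE depends on its many mitochondria to transport nutrients and ions and to digest shed photoreceptor tips, and it uses much of its oxygen in this way.

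Nuclear genes of these enzymes were mostly a little lower in old RPE/choroid. Of the 92 members, 19 fell and 3 rose at an adjusted p under 0.05 (limma, over all probe sets), and 70 did not pass. Over all genes tested, 9.56% fell and 11.8% rose, against 20.7% and 3.26% of the members. The median log2 fold change of the members, old minus young, was -0.10, a difference of -6.9%, and 67 of the 92 were below 0. Over all genes the median was -0.016 and 53.5% were below 0. The falls were small: those that passed ran from -0.17 to -0.72, with a median of -0.21. No member passed a fold over 2 with an adjusted p under 0.01, a threshold that 1.23% of all genes passed. An unadjusted p under 0.05 (limma) was reached by 41 of the 92 members and by 6804 of all 18193 genes.

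**Figure D1:**
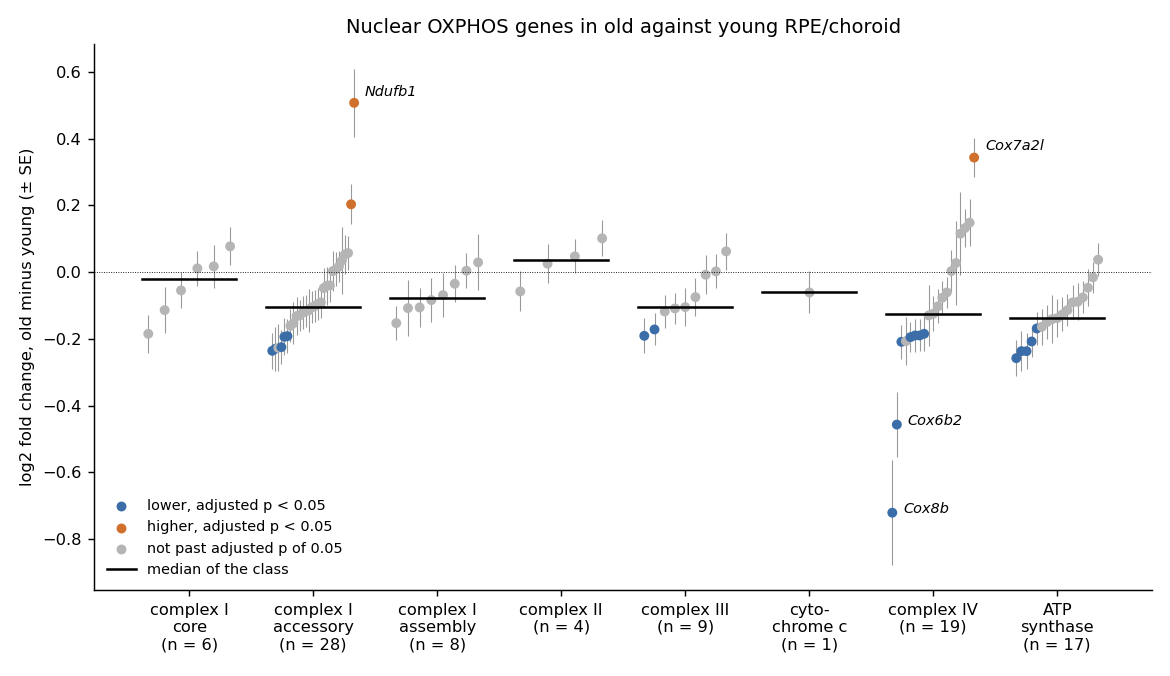
Log2 fold change (old minus young, ± SE of the limma fit) of each of the 92 members, by complex, with members ordered by value and a bar at the median of each class. Most points sit between 0 and -0.26. Cox8b (-0.72) and Cox6b2 (-0.46) lie lowest, and Ndufb1 (0.51) and Cox7a2l (0.34) highest.

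The arrays themselves gave the same direction. In 44 members every old array was below every young array, or 47.8% of the members against 13.7% of all genes. In 3 members the old arrays all lay higher than the young ones, as in 15.8% of all genes. The 19 members that fell and the 3 that rose were all among these. Across the 8 arrays, the median centred log2 level of the members was 0.073, 0.040, 0.048 and 0.040 in young arrays 1 to 4. It was -0.046, -0.100, -0.030 and -0.025 in old arrays 1 to 4. The ages did not overlap, and the second old array was the lowest.

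Most members are abundant transcripts, with a mean intensity of at least 1000 in 76 of 92. Among the 2932 genes of that brightness, a comparison added after the data were seen, 10.0% fell and 19.1% rose. Of the 76 bright members, 18 (23.7%) fell and 2 (2.63%) rose. Their median log2 fold change was -0.11, where that of all genes as bright was 0.02. The 16 dimmer members had a median of -0.016, with 1 that fell and 1 that rose.

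The number of members that fell was sensitive to single arrays, while their direction was not. Without young array 1, 3 or 4 it was 8, 5 or 10, and without old array 2, 3 or 4 it was 8, 7 or 9. Without young array 3 the 5 members were 5.43% of 92, the same share as the 5.44% of all genes that fell in that fit. With array 4 of both ages left out, 2 members (2.17%) fell against 4.88% of all genes. In every one of these fits between 72.8% and 80.4% of the members stayed below 0, against 51.6% to 54.4% of all genes. Scaling moved the count too, to 10 (10.9%, against 7.39% of all genes) after median centring and 29 (31.5%, against 11.3%) after quantile normalization. The share of members below 0 was 70.7% after median centring (47.2% of all genes) and 87.0% after quantile normalization (54.9%).

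Nuclear respiratory factor 1 (NRF1), ETS factors such as GABP, and YY1 are known to bind promoters of nuclear genes for oxidative phosphorylation. RefSeq (GRCm38.p6) gave the 300 bases around the start site, 250 before and 50 after, for 75 of the 92 members. On either strand, GCGCATGCG, the core of the NRF1 motif, was in 10 of the 75 promoters (13.3%) and in 1.95% of those of 27025 genes. The ETS motif CCGGAAG was in 19 (25.3%, against 9.93%) and the YY1 motif AAGATGGCG in 7 (9.33%, against 1.64%). At least 1 of the 3 was in 30 promoters (40.0%, against 12.7%). Sites of different motifs overlapped in 0 member promoters. Of the 17 members that fell and had a promoter in the table, 7 held a motif, about the same share as the 40.0% of all 75. The NRF1 core was in 2 of the 17, Uqcr11 and Atp5k, also about the share of all 75 (13.3%).

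Promoters of 4 members are shown 5′ to 3′ along the gene's own strand: of members that fell, Uqcr11 and Atp5k, which hold both NRF1 and ETS letters, and Cox8b, with the lowest log2 fold change, and of members that rose, Cox7a2l. Capitals mark the motif letters. All 4 genes lie on the minus strand of GRCm38.p6, at chr10:80406772-80407071 (Uqcr11), chr5:108434350-108434649 (Atp5k), chr7:140900397-140900696 (Cox8b) and chr17:83514284-83514583 (Cox7a2l).
Uqcr11: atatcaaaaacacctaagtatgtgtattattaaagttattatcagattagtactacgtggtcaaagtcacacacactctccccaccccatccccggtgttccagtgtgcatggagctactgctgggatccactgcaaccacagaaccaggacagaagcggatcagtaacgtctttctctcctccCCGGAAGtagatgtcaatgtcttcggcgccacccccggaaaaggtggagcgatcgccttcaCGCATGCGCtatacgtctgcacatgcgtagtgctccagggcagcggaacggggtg
Atp5k: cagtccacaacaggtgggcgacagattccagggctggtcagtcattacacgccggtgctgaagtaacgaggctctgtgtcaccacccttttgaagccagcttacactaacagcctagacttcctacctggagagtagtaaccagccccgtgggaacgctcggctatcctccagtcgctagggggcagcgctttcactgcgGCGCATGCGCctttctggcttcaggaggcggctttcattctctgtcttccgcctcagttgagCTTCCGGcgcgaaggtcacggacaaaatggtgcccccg
Cox8b: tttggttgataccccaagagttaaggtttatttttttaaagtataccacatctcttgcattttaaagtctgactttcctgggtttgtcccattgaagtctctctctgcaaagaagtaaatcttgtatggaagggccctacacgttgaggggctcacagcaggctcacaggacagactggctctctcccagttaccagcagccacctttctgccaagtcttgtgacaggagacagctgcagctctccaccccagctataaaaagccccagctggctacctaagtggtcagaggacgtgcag
Cox7a2l: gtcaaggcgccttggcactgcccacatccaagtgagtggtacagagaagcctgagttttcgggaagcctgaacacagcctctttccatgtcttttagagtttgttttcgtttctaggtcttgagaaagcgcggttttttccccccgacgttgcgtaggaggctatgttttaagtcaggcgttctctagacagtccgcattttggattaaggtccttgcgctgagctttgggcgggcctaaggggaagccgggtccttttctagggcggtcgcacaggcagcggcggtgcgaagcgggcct
In Uqcr11 the NRF1 letters, read on the opposite strand, begin at base -5 from the start site and the ETS letters at -66. In Atp5k the NRF1 letters stand on both strands in overlapping copies from -50 and -49, and the ETS letters, on the opposite strand, begin at base 13. None of the 3 motifs was found in the windows of Cox8b and Cox7a2l.

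Complex I, which oxidises NADH, has a catalytic core and a shell of accessory subunits that hold it together. Of 28 accessory subunits measured, 5 fell and 2 rose, with a median log2 fold change of -0.10 and 16 without overlap in the lower direction. None of the 6 nuclear core subunits passed, and their median was -0.022 (0.006 after median centring). The 5 complex I members that fell were all accessory subunits, and the difference between the classes was not tested.

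Ndufb2 and Ndufb11, accessory subunits of the membrane arm, both fell. Ndufb2 had intensities of 2113, 2205, 2176 and 2178 in young arrays 1 to 4 and 1912, 1717, 1908 and 1833 in old arrays 1 to 4. Its log2 fold change was -0.24 ± 0.054 (SE, 4 arrays per age, adjusted p = 0.0178 by limma). Ndufb11 had 7721, 7426, 7242 and 7145 in the young and 6503, 6145, 6193 and 6426 in the old arrays, a log2 fold change of -0.22 ± 0.051 (limma, adjusted p = 0.0173). For both genes each old array was below each young array. Ndufs4, an accessory subunit of the matrix arm whose loss causes mitochondrial disease, went from 2293, 2118, 2070 and 2003 to 1817, 1663, 1883 and 1869. Its log2 fold change was -0.23 ± 0.065 (limma, adjusted p = 0.0378), with the closest arrays of the ages at 2003 and 1883. Ndufa13, also known as GRIM-19, fell by 12.4% (limma, adjusted p = 0.0285) and Ndufa3 by 12.6% (adjusted p = 0.0413), neither with overlap. The calls of these 3 were fragile: Ndufs4 passed in 9 of 19 alternative fits, Ndufa13 in 9 of 18 and Ndufa3 in 8 of 19, where the log2 fold change of Ndufa3 was -0.092 (adjusted p = 0.175) with its probe sets averaged. Of these alternatives, 1 only changed the source of gene symbols, gave the same members and so could not change a call.

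Ndufa6 and Ndufb1 rose. Ndufa6, which helps to anchor the acyl carrier protein Ndufab1 on complex I, had 2119, 2015, 2072 and 2119 in young and 2185, 2558, 2447 and 2408 in old arrays. Its log2 fold change was 0.20 ± 0.060 (limma, adjusted p = 0.0463), and the first old array lay only just above the young ones. Ndufb1, a small membrane-arm subunit, was measured by a dim probe set with 79.6, 84.9, 75.2 and 75.7 in young and 94.1, 130.5, 122.2 and 104.4 in old arrays. Its log2 fold change was 0.51 ± 0.10 (limma, adjusted p = 0.0102), and this rise passed in all 19 alternative fits, with an adjusted p of at most 0.0414. Ndufa6 lost its call in 10 of its 19 alternative fits, where its adjusted p reached 0.149.

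Among the core subunits, Ndufs8 and Ndufs1, which carry iron-sulfur clusters, had the smallest p. Ndufs8 had 3633, 3413, 3535 and 3537 in young and 3082, 2881, 3259 and 3204 in old arrays, without overlap, a log2 fold change of -0.18 ± 0.057 that just missed the threshold (limma, adjusted p = 0.0507). A second probe set of Ndufs8 passed (-0.19, adjusted p = 0.0457). Ndufs1 gave -0.11 ± 0.069 (limma, adjusted p = 0.282) with overlapping arrays. The 8 assembly factors Ndufaf1 to Ndufaf8, which build the complex and are not part of it, had a median of -0.077 and none passed. Ndufaf2 (log2 fold change -0.15 ± 0.052, adjusted p = 0.0693) was the 1 of them without overlap, and Ndufaf8 gave -0.11 ± 0.059 (adjusted p = 0.243).

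Complex II, succinate dehydrogenase, is the one complex coded entirely in the nucleus, and it is shared with the citric acid cycle. None of its 4 subunits passed, and every one had overlapping arrays. Their log2 fold changes ran from -0.058 for Sdhc, a membrane anchor, to 0.10 for Sdhb, the iron-sulfur subunit. The median of 0.036 turned to -0.021 after quantile normalization and to -0.031 with all probe sets of a gene averaged, so complex II had no settled direction. The 95% intervals were -0.19 to 0.078 for Sdhc and -0.021 to 0.22 for Sdhb.

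In complex III, 2 of 9 members fell, none rose, and the median log2 fold change was -0.10. Uqcr11, a small subunit, had 2932, 2905, 3000 and 2967 in young and 2691, 2412, 2637 and 2606 in old arrays (-0.19 ± 0.053, limma, adjusted p = 0.0362). Uqcrc2, 1 of the core proteins on the matrix side, had 4051, 3890, 3988 and 4080 in young and 3477, 3500, 3580 and 3649 in old arrays (-0.17 ± 0.048, adjusted p = 0.0365). Neither gene overlapped between the ages, but each passed in only 9 of 19 alternative fits, with an adjusted p of up to 0.142 for Uqcr11 and 0.136 for Uqcrc2. Cycs, the electron carrier cytochrome c, had 3521, 4072, 4091 and 4049 in young and 3744, 3885, 3695 and 3729 in old arrays, an overlap made by the first young array alone. Its log2 fold change was -0.061 ± 0.063 (limma, adjusted p = 0.534).

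Complex IV, cytochrome c oxidase, held the widest range of changes. Of 19 members 7 fell and 1 rose, and the median log2 fold change was -0.12. Several of its subunits exist as a widespread form and as a form of particular tissues, and Cox8b and Cox6b2, with the lowest log2 fold changes of the 92 members, are both of the second kind.

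Cox8b, the form of subunit 8 known from heart, skeletal muscle and brown fat, had intensities of 2490, 2665, 3223 and 3518 in young arrays 1 to 4. It had 1821, 1331, 2091 and 2011 in old arrays 1 to 4, all below the young ones. Its mean went from 2974 ± 479 to 1814 ± 341 (SD, n = 4 each), a log2 fold change of -0.72 ± 0.16 or -39.3% (limma, adjusted p = 0.0144). It passed in all 19 alternative fits, with an adjusted p of at most 0.044. Cox8a, the widespread form, had 6354, 5973, 6086 and 6051 in young and 5463, 5166, 5430 and 5386 in old arrays, a fall of -0.19 ± 0.049 (adjusted p = 0.0285). The 95% intervals of Cox8b (-1.08 to -0.37) and Cox8a (-0.30 to -0.079) did not meet, but the difference between the genes was not tested.

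Cox6b2, known as the testis form of subunit 6b, went from 1246, 1232, 1377 and 1341 to 1151, 842, 885.5 and 931.4. Its log2 fold change was -0.46 ± 0.097 or -27.1% (limma, adjusted p = 0.0126), and the first old array stood nearer to the young arrays than to the other old ones. Cox6b1, the widespread form, did not pass (-0.12 ± 0.053, adjusted p = 0.133), though its arrays did not overlap. Cox4i2, the form of subunit 4 known from lung, was dim, with 139.1, 129.1, 137.1 and 137.9 in young and 119.5, 114.3, 119.5 and 116.4 in old arrays (-0.21 ± 0.050, adjusted p = 0.0212). Cox4i1 gave -0.061 ± 0.047 (adjusted p = 0.398). The muscle forms Cox6a2 and Cox7a1 overlapped between the ages and did not pass, with log2 fold changes of -0.13 ± 0.092 and 0.027 ± 0.13. The testis forms Cox7b2 (-0.21 ± 0.072, adjusted p = 0.0751) and Cox8c (0.003 ± 0.064, adjusted p = 0.982), named after their values were seen, likewise overlapped and did not pass. Of these 7 tissue-restricted forms, 3 fell. Cox4i2 kept its call in 12 of 19 alternative fits.

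Of the widespread forms, Cox7a2 fell from 7149, 6903, 6829 and 7075 to 6194, 5952, 6186 and 6179 (-0.19 ± 0.048, limma, adjusted p = 0.0248). Cox6a1 gave -0.10 ± 0.051 (adjusted p = 0.193). Ndufa4, once counted with complex I and now with complex IV, fell from 5596, 5621, 5534 and 5514 to 4864, 4784, 4812 and 4992 (-0.20 ± 0.046, adjusted p = 0.0201). Its relative Ndufa4l2, which is induced in hypoxia, gave 0.15 ± 0.071 (adjusted p = 0.18) with overlapping arrays. Cox7a2 and Cox8a each kept their call in 10 of 19 alternative fits and Ndufa4 in 15. The seventh member of complex IV that fell, named after its value was seen, was Cox5b at -12.1% (adjusted p = 0.0399). Its other bright probe sets did not pass, at -0.116, -0.143 and -0.142 (limma, adjusted p = 0.233, 0.0856 and 0.112). A dimmer probe set gave 0.106 (adjusted p = 0.473) and the dimmest -0.621 (adjusted p = 0.00621).

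**Figure D2:**
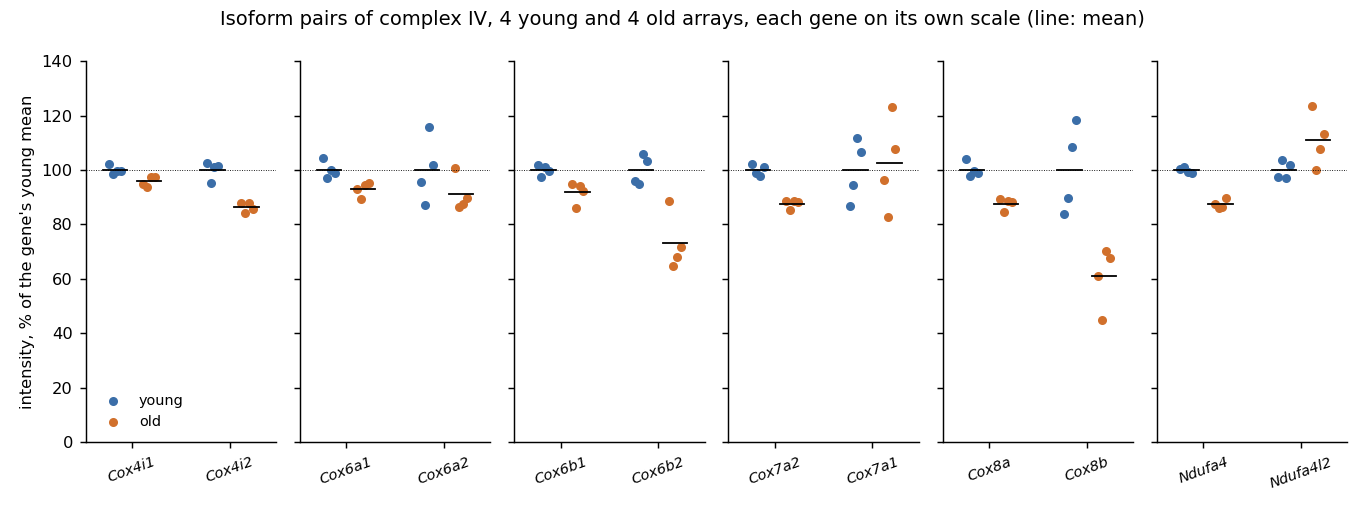
Intensity of 6 pairs of related complex IV genes in the 4 young and 4 old arrays, as a percent of each gene's own young mean, with a line at the mean of each age. Old arrays of Cox8b and Cox6b2 lie furthest below their young mean, while Cox6a2, Cox7a1 and Ndufa4l2 overlap between the ages. Heights compare ages within a gene, not genes.

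Cox7a2l rose, against the direction of most members. It codes for a relative of subunit 7a that joins complexes III and IV in a supercomplex, and C57BL/6 mice are known to carry a shortened form of the protein. Its intensities were 2585, 2720, 2673 and 2777 in young arrays 1 to 4 and 3247, 3701, 3314 and 3398 in old arrays 1 to 4. The lowest old array stood well above the highest young one. The log2 fold change was 0.34 ± 0.058, or 26.9% (limma, adjusted p = 0.00464), and it passed in all 19 alternative fits, with an adjusted p of at most 0.0283. Its other probe sets, about as bright, rose less, by 0.205 (limma, adjusted p = 0.0248) and 0.199 (adjusted p = 0.047).

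ATP synthase had a median of -0.14, below the -0.12 of complex IV, an order that turned with array weights (-0.113 and -0.125). Of 17 members 5 fell, none rose, 16 were below 0 and 12 did not overlap between the ages in the lower direction. Atp5d, the delta subunit of the rotating stalk, had 5686, 5240, 5170 and 5133 in young and 4473, 4289, 4469 and 4510 in old arrays (-0.26 ± 0.054, limma, adjusted p = 0.012). Its young and old arrays were far apart beside their spread, and it passed in all 18 alternative fits that measured it, with an adjusted p of at most 0.0496. Atp5md, or DAPIT, had 4502, 4115, 4144 and 4093 in young and 3612, 3467, 3634 and 3581 in old arrays (-0.24 ± 0.053, adjusted p = 0.016). Atp5k, the e subunit, had 5861, 5423, 5503 and 5361 in young and 4858, 4314, 4781 and 4856 in old arrays (-0.24 ± 0.060, adjusted p = 0.0259). Both sit in the membrane part where ATP synthase forms dimers. Atp5h, subunit d of the peripheral stalk, went from 7770, 7699, 7758 and 7676 to 6909, 6494, 6613 and 6749 (-0.21 ± 0.047, adjusted p = 0.0171). Atp5j2, subunit f, fell by 11.1% (adjusted p = 0.0413) and likewise did not overlap, but it passed in only 8 of 19 alternative fits, and Atp5k in 13.

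**Figure D3:**
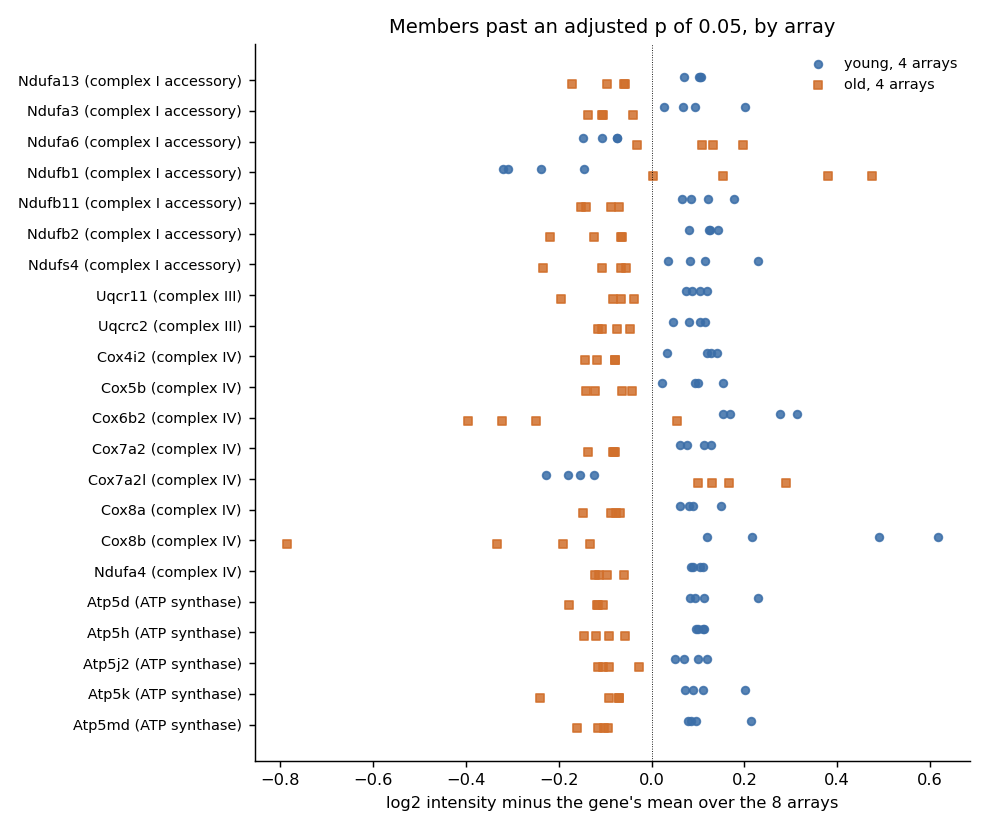
Log2 intensity of the 22 members past an adjusted p of 0.05 in each array, centred on the gene's mean over the 8 arrays (circles, 4 young arrays; squares, 4 old arrays). Old arrays lie to the left for the 19 members that fell and to the right for Ndufa6, Ndufb1 and Cox7a2l, with no overlap in any row.

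For most members that did not pass, the interval left out large differences. The median SE of a log2 fold change was 0.054, and in 50 of the 70 members that did not pass the 95% interval lay within 0.25 of 0 on the log2 scale. That bound is wider than the median of -0.21 among members that fell, so it does not set the 2 groups apart. Where a member had several bright probe sets, they mostly gave similar values. Of 38 members with at least 2 at a mean intensity of at least 1000, 32 had all of the same sign. The range between them had a median of 0.056 and reached 0.152. In 4 members that did not pass, another probe set did: Ndufs8 as above, Cox5a (0.21, adjusted p = 0.0259), Ndufab1 (-0.39, adjusted p = 0.0346) and Uqcr10 (-0.47, adjusted p = 0.0114), the last 2 from dimmer probe sets. Cox7b, and Ndufa11, Ndufb4b, Ndufb4c and Ndufs6, whose probe sets are shared with other genes, were not analysed here.

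Other nuclear genes of mitochondria were counted beside the members. Of 18 mitochondrial content genes outside oxidative phosphorylation (such as membrane channels, carriers, import and fusion genes), 1 fell (Vdac1, -0.21, adjusted p = 0.0306), 1 rose (Phb2, 0.21, adjusted p = 0.0256), and the median log2 fold change was 0.017. Of 36 further assembly factors of the complexes, 1 fell (Coa3, -0.32, adjusted p = 0.0355), 2 rose (Sco2, 0.18, adjusted p = 0.0388, and Coa5, 0.19, adjusted p = 0.0302), and the median was -0.069. A single gene of the mitochondrial genome was measured, ND5 of complex I, with 11284, 11954, 12338 and 12443 in young and 10694, 11043, 10731 and 11184 in old arrays (-0.14 ± 0.053, limma, adjusted p = 0.104). It did not overlap between the ages, and its change was near the median of the nuclear members.

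Among 18 regulators of mitochondrial biogenesis the median was -0.004, and 1 fell and 1 rose. Ppargc1a, the coactivator PGC-1alpha that drives many of these genes, had 1017, 947.3, 814.5 and 786.9 in young and 684.3, 550.1, 476.7 and 528.4 in old arrays. Every old array was below every young one, with a log2 fold change of -0.68 ± 0.12 (limma, adjusted p = 0.00609). Pprc1, a related coactivator, rose by 0.27 ± 0.051 (adjusted p = 0.00762). Of the factors whose motifs were searched, Nrf1 gave -0.18 ± 0.074 (adjusted p = 0.121), Gabpa 0.015 ± 0.062 (adjusted p = 0.891) and Yy1 0.14 ± 0.056 (adjusted p = 0.118).

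Markers of several cell types moved with age beside these genes. The labelled tissue held RPE, whose 13 markers had mean intensities from 170.1 to 18550, and 8 of the 13 fell and none rose. Rpe65 (-0.064), Rgr (-0.085), Ttr (-0.071), Mitf (-0.17) and Best1 (0.056) did not pass. Rlbp1, which fell, is also in the Mueller glia and astrocyte list below. The mean centred log2 level of the RPE list ran from 0.08 to 0.13 in the young arrays, while the old arrays lay between -0.18 and -0.03, so it separated the ages as the members did. This was not particular to RPE, as the endothelial, melanocyte, and Mueller glia and astrocyte lists separated the ages in the same direction. Their highest old levels were -0.03, 0.01 and -0.1, each under the lowest young level of its list (0.06, 0.14 and 0.3). Of 10 endothelial markers 8 fell (median -0.34) and of 5 melanocyte markers 5 fell (-0.24). Of 10 macrophage markers 7 rose, from young list levels between -0.51 and -0.31 to old ones between 0.24 and 0.81. The second old array, lowest for the members, had the highest list level of macrophage markers and of neutrophil markers (2.07). In that array Cd14 was 2073 and Cd163 185.4, against at most 628.3 and 25.88 in the other old arrays, and neither gene passed. Mrc1 and Itgam were also highest there, while Cd68, Adgre1, Csf1r, Aif1, Trem2 and Lyz2 were not. Of the other lists, 4 of 7 Mueller glia and astrocyte markers fell and 1 rose, 4 of 8 lymphocyte and 2 of 7 neutrophil markers rose, 2 of 7 cone markers fell and 1 rose, and 1 marker rose in each of fibroblasts, inner retinal neurons, smooth muscle with pericytes, and adipocytes. The part of these cell types in the result was not tested.

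Rod and skeletal muscle markers varied widely between arrays of 1 age and overlapped between the ages. Of 10 rod markers (mean intensities of 395.4 to 4189) 0 passed, and the list level ran from -0.49 to 0.58 over the young arrays and from -0.80 to 0.68 over the old. Of 15 skeletal muscle markers 0 passed, and these were dim (45.93 to 328.2). Their list level was -0.198, -0.317, 0.434 and 0.54 in young arrays 1 to 4 and 0.398, -0.314, -0.007 and -0.537 in old arrays 1 to 4. Beside Cox8b, a muscle form given by array above, the list overlapped between the ages where the gene did not, and the part of muscle in its values was not tested.

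**Figure D4:**
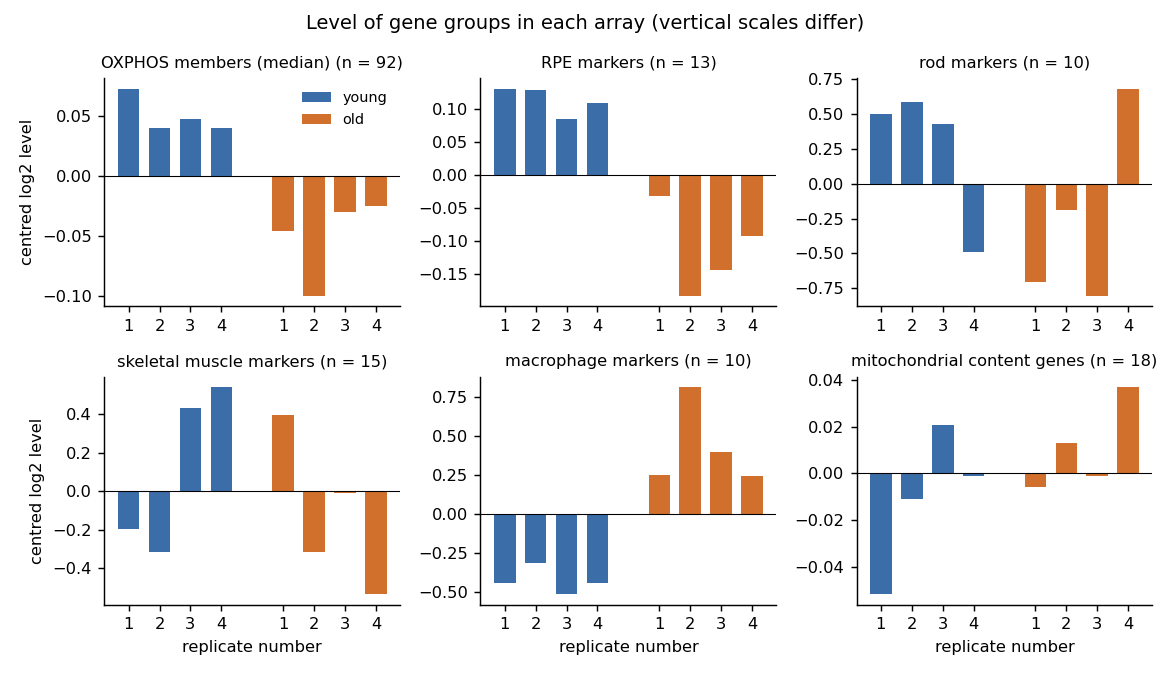
Centred log2 level of the 92 members (median) and of 5 other gene lists (means) in each array, with vertical scales that differ between panels. The members and the RPE markers are higher in all 4 young than in all 4 old arrays, macrophage markers lower, and rod, muscle and mitochondrial content genes overlap between the ages.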

How the data were processed

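RPE/choroid RNA was hybridised to Affymetrix Mouse 430 2.0 arrays, 1 per sample, and the deposited values are linear intensities that the authors had already normalized by a step the table does not name. Their methods give RMA and the invariant set method of Dchip as routes. Array medians were 129 to 135, and arrays of the same age correlated at 0.991 or more, those of different ages at 0.989 or less. The number of arrays (4 per age) limits the precision. Nothing says which arrays share litters or processing days.

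Values were floored at 1 and taken to log2 (8 to 14 values per array were raised). Of 45101 probe sets 64 controls were left out and 45037 were fitted in R 4.3.3 with limma 3.58.1 (lmFit, eBayes), old minus young, with p-values adjusted by Benjamini-Hochberg across these probe sets and a threshold of 0.05. Probe sets annotated to 1 gene (34945) gave 18193 genes, each represented by whichever probe set had the highest mean log2. Intensities are not comparable between genes. SE and 95% intervals are those of the fit, and the code was tested on simulated data.

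Named were up to 4 members per class with the largest change among those that passed (the 2 smallest p where fewer than 2 passed), any count of 5 or fewer, Cycs and the complex IV isoform pairs. Atp5if1 carries an older symbol in the annotation and is not a member. The members and lists were chosen with earlier results of these data known. Alternatives covered scaling, floor, low-value filter, probe set choice, eBayes settings, array weights, a replicate block, thresholds and leaving out arrays. The alternative source of gene symbols repeated the reported fit for the same members. Leaving out probe sets ending in _x_at or _s_at also reused that fit. It could matter only for the 20 members represented by such a probe set.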

Additional observations from a re-analysis of the deposited data

Results flagged for a closer look

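Of 74 groups of 4 arrays examined for the genes named here, 7 held an array that stood further from the other 3 than chance allows in about 1 in 20 groups. In old array 2, Atp5k was 4314 against 4781 to 4858 in the other old arrays (gap 0.866 of the range), Cox7a2 was 5952 against 6179 to 6194 (0.941) and Ndufaf8 was 1901 against 1977 to 1992 (0.84). In young array 1, Atp5md was 4502 against 4093 to 4144 in the other young arrays (0.872), Uqcr10 was 3467 against 3257 to 3268 (0.943) and Cycs was 3521 against 4049 to 4091 (0.931). In young array 4, Ndufa13 was 6232 against 6369 to 6396 (0.836).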

How the results depend on the processing

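The number of members that fell (19) became 29 with quantile normalization, 10 with median centring, 31 with a floor of 16, 35 with trend and robust eBayes, 5 with a replicate block and 2 without the arrays numbered 4 of both ages. It was 0 at a fold over 2 with an adjusted p under 0.01, where the number that rose (3) was also 0, and 44 by absence of overlap between the ages. Leaving out each array in turn gave 5 to 16. The other alternatives gave 15 to 26 that fell, and 2 to 4 that rose in all fits at an adjusted p under 0.05. Of all genes, 9.56% fell in the reported fit, 10.7% with the floor of 16 and 11.8% with trend and robust eBayes. The median log2 fold change of all members (-0.102) was -0.136 with quantile normalization and -0.074 with median centring, and that of complex I accessory subunits (-0.104) was -0.147 and -0.076. That of complex II (0.036) was -0.021 with quantile normalization and -0.031 with the mean of probe sets. The members without overlap in the lower direction numbered 46 after quantile normalization and 33 after median centring, against 15.9% and 10.9% of all genes. Fits without the arrays numbered 4 and counts without overlap after scaling were chosen after seeing the data. The cause of these shifts was not tested.

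After removal of the age means, arrays with the same number correlated at 0.019 to 0.0971, and those with different numbers at -0.124 to 0.0633. Not every array correlated best with its own number, and such small correlations cannot settle whether the numbers pair the samples. With the replicate block 5 members fell (5.43%, against 6.91% of all genes) and 2 rose. Cox8b, Atp5d, Cox7a2l and Ndufb1 kept direction and call in every alternative fit that measured them. No gene that passed changed direction among those followed fit by fit, which left out Cox5b.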
